A study of Homo sapiens with 6 samples.

Results

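Integrins and laminins were followed in SaOS-2 cells, a human osteosarcoma line that lacks functional RB and p53, with and without induced p21. The 38 genes were every row of the deposited table whose symbol named an integrin alpha subunit, an integrin beta subunit or a laminin chain, out of 23228 gene names. They comprised 18 integrin alpha, 8 integrin beta and 12 laminin genes. All 6 libraries came from SaOS-2 cells carrying a Tet-inducible p21 vector, 3 from untreated cells (p21 OFF) and 3 from cells given 1 µg/ml doxycycline for 24 h (p21 ON), all in DMEM with fetal bovine serum. Doxycycline is the antibiotic that switches the vector on, and cells without the vector but given the drug were not analysed here, so effects of the drug and of p21 cannot be told apart. The labels number the replicates without saying whether they were separate cultures, and the p-values then measure only the spread between these libraries. RNA in bulk was measured, so fewer cells of a type and less RNA per cell cannot be told apart.

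Integrins are transmembrane receptors built from an alpha and a beta subunit, and the pair decides which matrix protein is bound. Laminins are trimers of an alpha, a beta and a gamma chain that assemble into the sheet of the basement membrane, where integrins and other receptors hold on to them. In bone cells, collagen and fibronectin receptors tie the cell to its matrix, while laminins with an alpha-3 chain and their receptor alpha-6 beta-4 are best known from the anchoring of skin epithelium.

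Of the 38 genes, 28 could be tested, and 8 of these were called higher in p21 ON and 0 lower. Of all tested genes, 10.5% were called higher and 12.7% lower. Among tested genes with a canonical transcript of 4000 bases or more, which 23 of the 28 reached, these shares were 17.0% and 6.14%. LAMA3, the laminin alpha-3 chain, rose most, about 2.02-fold. The others were the collagen receptor subunits ITGA1, ITGA10 and ITGA11, the laminin receptor subunits ITGA7 and ITGB4, and the laminin chains LAMA5 and LAMB2, with log2 fold changes of 0.19 to 0.41. Across all tested genes the log2 fold change rose with transcript length. With this trend taken out, 5 of the 28 were higher and 2 lower, against 10.6% and 13.0%, and ITGA1, LAMA5 and LAMB2 lost their calls. The most abundant subunits of the cell's fibronectin and collagen receptors, ITGB1 and ITGA5, did not pass the test.

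The table holds normalized counts, meaning reads on a gene divided by a size factor of the library. The libraries held 12795490 to 21975045 reads on genes. A gene was tested when its mean over the 6 libraries was at least 10, which 13255 genes met, and was called higher or lower at an adjusted p under 0.05 in limma on log2(normalized count + 1). CDKN1A, which encodes p21, had normalized counts of 1257, 1187 and 1355 in p21 OFF and 40470, 43863 and 46739 in p21 ON, a log2 fold change of 5.11 (limma, adjusted p = 1.12e-19). The libraries also differed by transcript length. In p21 OFF replicate 1, the library with the fewest reads, genes with a canonical transcript of 4000 bases or more had a median log2 deviation of -0.108 from each gene's mean over the libraries, while in p21 ON replicate 1 it was 0.0608. This deviation was -0.00672 and 0.0126 in p21 OFF replicates 2 and 3. It was 0.0321 in p21 ON replicate 2, which had 12918390 reads on genes, and 0.0241 in p21 ON replicate 3. Across the 12635 tested genes with a matched length the log2 fold change rose with length, from a median of -0.17 in the shortest of 10 length bins to 0.16 in the longest. Integrin and laminin transcripts are long, with a median of 5754 bases among the tested ones against 3390 for all tested genes, so values with this trend taken out are given beside the results. Osteoblast lineage markers were present, 6 of 8 with a mean of at least 10 and a summed level of 53253 to 56150 in p21 OFF and 54318 to 58566 in p21 ON, although BGLAP was at 0 and COL1A2 near 0. Most of this sum was ALPL, with means of 36026 and 37302. Leukocyte markers were near absent, 1 of 6 reaching a mean of 10 with a summed level of 58.5 to 80.8 over all libraries, with SPI1 at 0, and 0 of 4 platelet markers reached it, GP9, PF4 and PPBP being at 0. Epithelial markers, 3 of 5 with a mean of at least 10, KRT19 at 0 and CDH1 near 0, summed to 2237 to 2753 in p21 OFF and 2567 to 2902 in p21 ON. Most of this sum was KRT18, with means of 2066 and 2259. Endothelial markers, 2 of 5 with a mean of at least 10, summed to 68.0 to 74.1 in p21 OFF and 79.2 to 107.4 in p21 ON. Most of this sum was VWF, with means of 53.6 and 77.2, while CDH5, KDR and TEK had means below 10. The part of these cell type markers in the results was not tested.

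LAMA3 spans chr18:21269417-21536186 on the plus strand of GRCh37, the build also named hg19. Its promoter is shown because this gene had the largest change, followed by that of ITGA10, the called integrin with the lowest adjusted p, and that of LAMB3, whose chain pairs with LAMA3 and whose transcript was not called. The LAMA3 window, chr18:21452734-21453033 on the plus strand of GRCh37, runs from 250 bases before to 50 bases after the start of the shorter transcript, which lies inside the gene. Counts are per gene and do not show which LAMA3 transcript rose. No window at the start of the longer transcript was searched. The ITGA10 window is chr1:145910001-145910300 on the minus strand of GRCh38.p14, while the gene is annotated on the plus strand of GRCh37, at chr1:145524969-145543868. The LAMB3 window is chr1:209824670-209824969 on the minus strand of GRCh37, at the start of the innermost of 3 listed for the gene. All are RefSeq sequences of build GRCh38.p14, written 5′ to 3′, and GRCh37 positions come from exact matches to that genome. Capitals mark the matches to 4 searched motifs on either strand, which were the cell cycle element CHR (TTTGAA), the CCAAT box (CCAAT), the GC box (GGGCGG) and the AP-1 element (TGACTCA), the last chosen after the sequences were seen.
LAMA3: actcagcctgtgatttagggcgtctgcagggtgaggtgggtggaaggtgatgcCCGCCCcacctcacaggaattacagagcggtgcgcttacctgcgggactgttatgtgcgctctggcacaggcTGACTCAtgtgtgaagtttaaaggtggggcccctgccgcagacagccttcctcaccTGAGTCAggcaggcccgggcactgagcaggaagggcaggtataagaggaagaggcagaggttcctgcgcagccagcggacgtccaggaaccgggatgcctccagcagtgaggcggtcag
ITGA10: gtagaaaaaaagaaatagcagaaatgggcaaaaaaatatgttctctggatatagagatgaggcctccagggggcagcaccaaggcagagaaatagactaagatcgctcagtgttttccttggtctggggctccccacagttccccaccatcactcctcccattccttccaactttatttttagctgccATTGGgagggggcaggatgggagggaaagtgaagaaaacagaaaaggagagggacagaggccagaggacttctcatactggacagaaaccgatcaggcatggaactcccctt
LAMB3: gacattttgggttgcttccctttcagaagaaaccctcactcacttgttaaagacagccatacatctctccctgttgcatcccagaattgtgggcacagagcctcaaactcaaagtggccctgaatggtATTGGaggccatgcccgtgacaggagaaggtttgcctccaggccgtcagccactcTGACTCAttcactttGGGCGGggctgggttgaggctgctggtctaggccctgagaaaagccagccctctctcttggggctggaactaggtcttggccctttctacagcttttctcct
The LAMA3 window held a GC box at position -197 and an AP-1 element at -125 and again, on the other strand, at -69, counted from the start site. The LAMB3 window shown held a CCAAT box at -122, an AP-1 element at -67 and a GC box at -52. The other LAMB3 windows, at 2 start sites farther upstream, overlapped and shared the same GC box. This box lay at -88 from the more upstream of these start sites and at -184 from the less upstream. Neither window held any of the other motifs. ITGA10 held a CCAAT box at -62. The letters TTTGAA were in none of the promoter windows found for the called genes. Among these genes the AP-1 element was in the LAMA3 window only. GC boxes were also in the LAMA5 and LAMB2 windows, and the ITGA1 and ITGA11 windows held none of the searched motifs. For comparison, 15.2% of the 35116 RefSeq promoters of this length held TTTGAA, 34.6% the CCAAT box, 45.0% the GC box and 4.95% the AP-1 element. The AP-1 share cannot serve as a test, because that motif was chosen after the sequences were seen. A match is a stretch of letters and not a mapped binding site. ITGB4 and ITGA7 were not among the promoters matched.

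Expression of the genes was uneven. Of the 38 genes, 28 were tested, 19 integrins and 9 laminins. ITGA8, ITGAX, LAMA1 and LAMB4 were at 0 in every library, where 3 reads is the limit that a count of 0 allows, or a share of 1.37e-05 to 2.34e-05% of the reads by library, for counting error only. ITGA9, ITGAD, ITGAL, ITGAM, ITGB6 and LAMC3 had 0 to 11 reads in a library and were not tested. Counted per kilobase of canonical transcript, mean levels in p21 OFF ran from 3798 for ITGB1 through 2210 for ITGB4, 2016 for ITGA3, 1703 for ITGB5 and 1437 for ITGA5 down to 2.35 for LAMA2 among the tested genes described here. ITGA4 at 936 and LAMC1 at 777 came next, ahead of LAMB1 at 620 and LAMB2 at 572. The order of ITGB1 and ITGB4 depended on the length used. Per kilobase of all annotated exons ITGB4 made up 46.2% and ITGB1 23.3% of the beta subunit level in p21 OFF, against 27.7% and 47.6% per kilobase of canonical transcript.

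**Figure D1:**
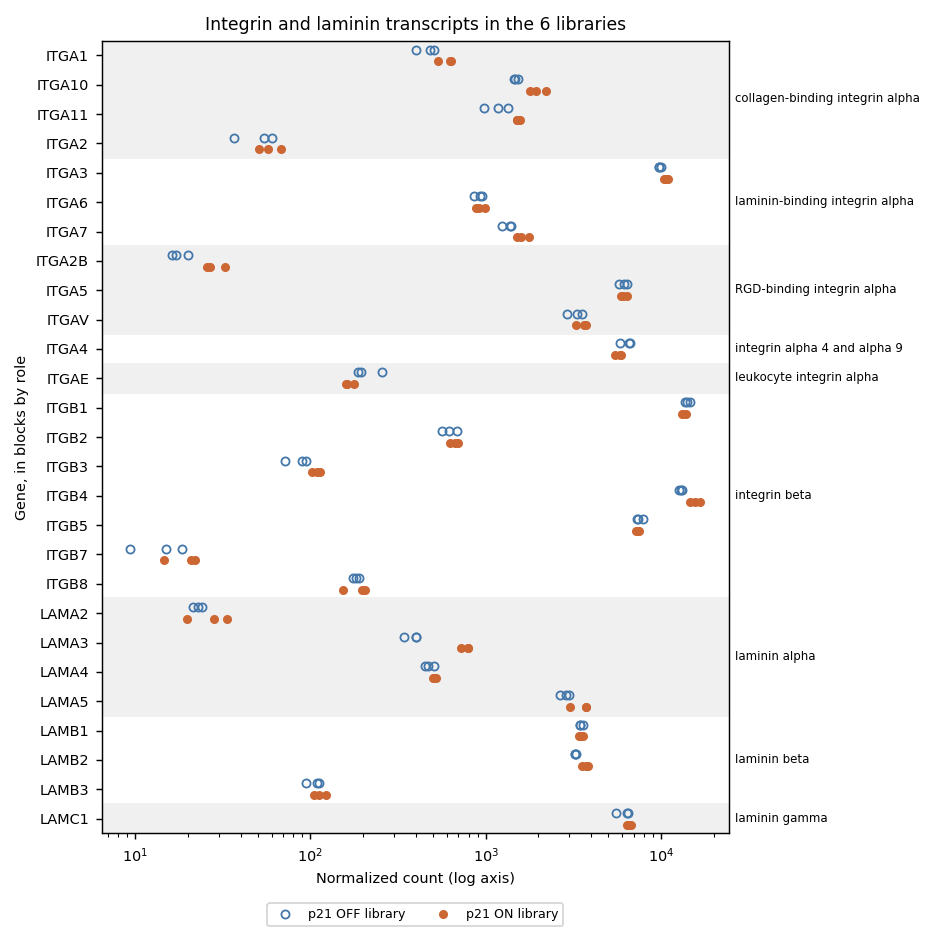
Normalized count (log axis) of 27 tested integrin and laminin genes, with 1 open circle per p21 OFF library and 1 filled circle per p21 ON library, in blocks by role. LAMA3 stands out with p21 ON circles at 727.4 to 796.3 and p21 OFF circles at 341.6 to 402.8, while ITGB1, ITGA5, ITGA6 and LAMB1 overlap.

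Among the tested genes, 8 of 28 (28.6%) were called higher by limma, against 10.5% of all 13255 tested genes, and 0 were called lower, against 12.7%. Among the 5129 tested genes with a canonical transcript of 4000 bases or more, a length that 23 of the 28 reached, 17.0% were called higher and 6.14% lower. All p21 ON libraries lay above all p21 OFF libraries for 11 of the 28 genes, against 19.1% of all tested genes, and below them for ITGAE, against 21.3%. The median log2 fold change of the 28 genes was 0.12, with 22 above 0 and 6 below, against 0.01 for all tested genes and 0.08 for those of 4000 bases or more. With the length trend taken out, 5 of the 28 were higher, against 10.6% of the 12635 genes with a length and 11.0% of those of 4000 bases or more, and ITGA4 and ITGAE were lower, against 13.0%. Leaving out p21 OFF replicate 1 kept all 8 and added ITGA4 as lower, against backgrounds of 10.4% and 12.2%. Leaving out p21 ON replicate 1 or p21 ON replicate 3 left 5 genes higher and 0 lower in each case, against backgrounds of 5.24% higher and 6.69% lower and of 5.58% and 8.13%. edgeR and DESeq2 on the reads recovered from the table called the same 8, against 10.6% and 8.43% of all tested genes, and none lower, against 12.4% and 10.7%. Scaling by library size alone, which called 15.3% of all tested genes higher and 9.01% lower, added ITGA2B, ITGA3 and ITGB3. At an adjusted p under 0.01, 5 of the 28 were higher and 0 lower, against 4.65% and 6.65%.

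**Figure D2:**
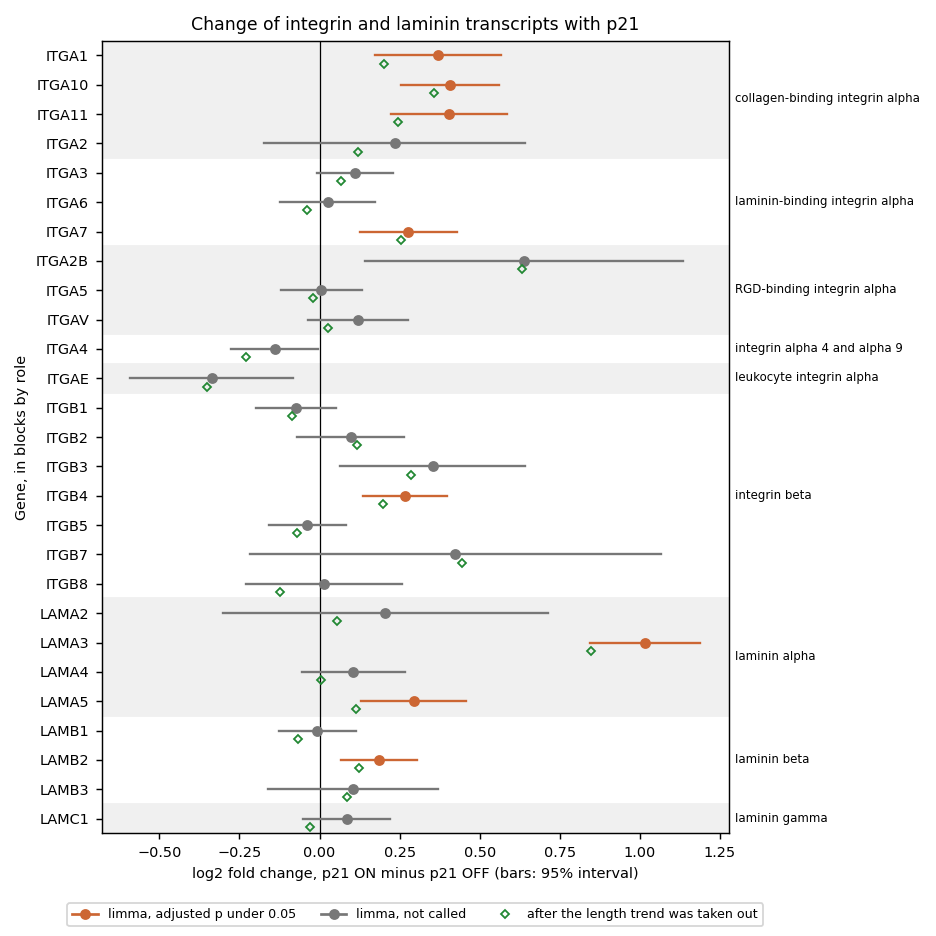
Log2 fold change of p21 ON minus p21 OFF for 27 tested genes, with 95% intervals from limma (3 libraries a group) and, as diamonds, the value with the length trend taken out. The 8 called genes are coloured, with LAMA3 at 1.02 or, corrected for length, 0.85, and the interval of ITGB1 spanning -0.20 to 0.05.

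The laminin alpha chains carry the sites that integrins bind. LAMA3 had normalized counts of 341.6, 400.7 and 402.8 in p21 OFF and of 796.3, 727.4 and 789.7 in p21 ON. Every p21 ON library was above every p21 OFF library by a wide margin. The mean rose from 381.7 ± 34.8 to 771.1 ± 38.0 (SD, n = 3), a log2 fold change of 1.02 (SE 0.08; limma, adjusted p = 3.71e-08). LAMA3 was called higher in all 20 alternatives, with values between 0.85, where the length trend was taken out, and 1.06.

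LAMA5, the alpha chain of most adult basement membranes, was at 2644, 2985 and 2886 in p21 OFF and at 3726, 3012 and 3743 in p21 ON. The groups did not overlap, but p21 ON replicate 2 lay just above the highest p21 OFF library. Its log2 fold change was 0.29 (SE 0.08; limma, adjusted p = 0.0117). The call was lost with the length trend taken out, at 0.12 and an adjusted p of 0.183 in limma. It was also lost without p21 ON replicate 1 (limma, adjusted p = 0.0882) and without p21 ON replicate 3 (limma, adjusted p = 0.0893). LAMA4, an alpha chain of blood vessels and mesenchyme, had a mean of 473.9 in p21 OFF and 509.3 in p21 ON with overlapping groups, and LAMA2, the muscle chain, one of 22.8 and 27.0. Neither was called.

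Per kilobase of canonical transcript, LAMA5 made up most of the laminin alpha level in both conditions. LAMA3 supplied 9.78, 10.3 and 10.4% of that level in p21 OFF and 15.7, 16.9 and 15.6% in p21 ON. The groups were apart by a mean of 5.92 percentage points, and by 5.52 to 6.14 with 1 library left out. LAMA5 supplied 70.5 ± 0.84% in p21 OFF and 67.6 ± 2.18% in p21 ON (SD, n = 3), a difference of -2.93 percentage points that became -1.68 without p21 ON replicate 2. These shares are descriptions and were not tested. For LAMA3, the share and the value with the length trend taken out both used a single length of 10651 bases. Counts per gene do not show which of its transcripts was present.

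The beta and gamma chains complete the trimer. LAMB2, the beta-2 chain, had counts of 3255, 3286 and 3219 in p21 OFF and 3823, 3555 and 3726 in p21 ON. No library of the groups overlapped, and the log2 fold change was 0.19 (SE 0.06; limma, adjusted p = 0.0256). This was the weakest of the 8 calls, kept in 13 of 20 alternatives and lost with the length trend taken out (0.12; limma, adjusted p = 0.0782). It was lost too when any of 4 libraries was left out, with limma adjusted p-values of 0.0581 without p21 OFF replicate 2, 0.0685 without p21 OFF replicate 3, 0.142 without p21 ON replicate 1 and 0.0797 without p21 ON replicate 3.

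LAMB1, the beta-1 chain, had means of 3503 and 3488, and the 95% interval of its log2 fold change ran from -0.13 to 0.11. LAMC1, the gamma-1 chain found in most laminins, had means of 6162 and 6522 with an interval of -0.05 to 0.22. Both intervals leave out a change of the size seen for LAMA3. LAMB3, the beta chain that joins LAMA3 in the epithelial laminin, was low. It had counts of 94.2, 108.6 and 112.4 in p21 OFF and 122.2, 112.1 and 104.5 in p21 ON, with overlapping groups and an interval of -0.16 to 0.37. LAMB3 was not called in any alternative.

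**Figure D3:**
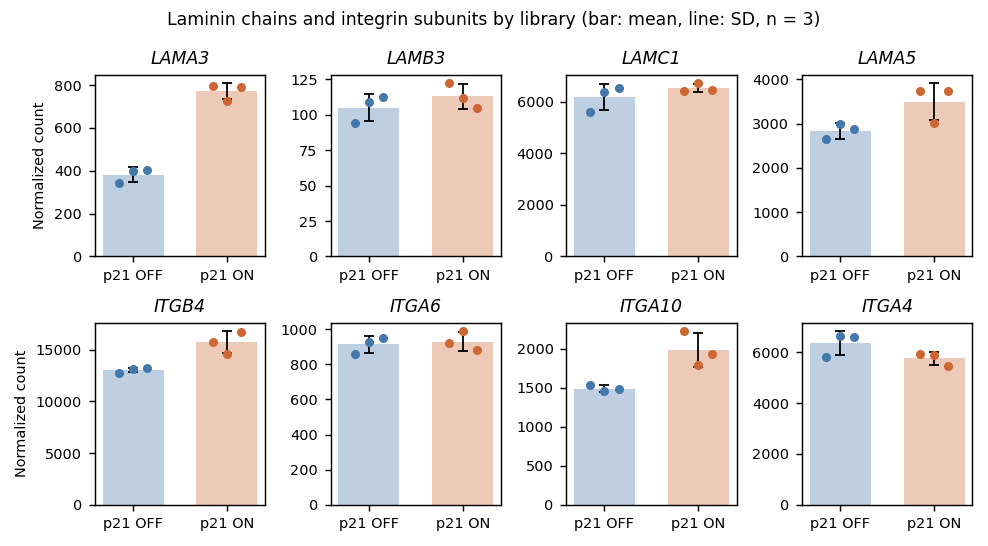
Normalized count of 8 laminin chains and integrin subunits in each library (points), with the mean (bars, from 0) and SD (lines, n = 3). LAMA3 goes from 381.7 to 771.1 while the points of LAMB3, the beta chain that joins it, and of LAMC1 overlap between the groups, and ITGB4 lies higher in p21 ON while its partner ITGA6 overlaps.

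The collagen-binding alpha subunits all pair with ITGB1. Of the 4, 3 were called higher, where 10.5% of all tested genes and 17.0% of those of 4000 bases or more were called higher. With the length trend taken out 2 were, against 10.6% and 11.0%. ITGA10, best known as a collagen receptor of cartilage and bone, had counts of 1533, 1452 and 1478 in p21 OFF and 2220, 1795 and 1927 in p21 ON. The lowest p21 ON library exceeded the highest p21 OFF library, with a log2 fold change of 0.41 (SE 0.07; limma, adjusted p = 0.000693), or 0.36 with the length trend taken out. ITGA11, a receptor of mesenchymal cells for fibrillar collagen, lies at chr15:68588870-68724502 on the minus strand of GRCh37. Its counts were 984.6, 1179 and 1341 in p21 OFF and 1513, 1506 and 1579 in p21 ON. The p21 OFF libraries were spread more widely than the p21 ON libraries, without overlap, and the log2 fold change was 0.40 (SE 0.09; limma, adjusted p = 0.00298), or 0.24 with the length trend taken out. Both genes were called in all 20 alternatives.

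ITGA1, a receptor for basement membrane collagen, had counts of 401.9, 479.6 and 509.3 in p21 OFF and 626.3, 633.6 and 534.0 in p21 ON. The groups were apart, p21 ON replicate 3 being nearest to p21 OFF. Its log2 fold change of 0.37 (SE 0.09; limma, adjusted p = 0.00915) became 0.20 with the length trend taken out (limma, adjusted p = 0.0573), and the call was also lost without p21 ON replicate 1 (limma, adjusted p = 0.0592). ITGA2, the collagen receptor of platelets and epithelia, was low, at 36.4, 60.2 and 54.7 against 67.5, 51.2 and 57.0, with overlapping groups. Summed per kilobase of canonical transcript, the 4 collagen-binding subunits were at 454.2 ± 18.4 in p21 OFF and 599.7 ± 43.8 in p21 ON (SD, n = 3), a ratio of 1.32.

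Of the laminin-binding alpha subunits, 1 of 3 was called higher, beside the background of 10.5% of all tested genes and 17.0% of the long ones. ITGA7, the laminin receptor of muscle, had counts of 1385, 1240 and 1387 in p21 OFF and 1586, 1507 and 1770 in p21 ON. The groups did not overlap, and the log2 fold change was 0.28 (SE 0.07; limma, adjusted p = 0.0106). It kept its call with the length trend taken out, at 0.25, but not without p21 OFF replicate 2 (limma, adjusted p = 0.0578) or without p21 ON replicate 3 (limma, adjusted p = 0.078).

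ITGA3, which joins ITGB1 in a laminin receptor, was the most abundant alpha subunit, at 9729, 9813 and 10020 in p21 OFF and 10636, 10353 and 10939 in p21 ON. Its groups did not overlap either, but the log2 fold change of 0.11 did not pass (limma, adjusted p = 0.163). ITGA6 had means of 913.3 ± 48.4 and 929.5 ± 53.2 (SD, n = 3), overlapping groups and an interval of -0.12 to 0.17.

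Among the beta subunits 1 of 7 tested genes was called higher, a share near the background of 10.5% of all tested genes and 17.0% of the long ones. ITGB4, the long-tailed subunit that links laminin to keratin filaments, lies at chr17:73717408-73753899 on the plus strand of GRCh37. It had counts of 12771, 13095 and 13224 in p21 OFF and 15722, 14614 and 16733 in p21 ON. All p21 ON libraries were above all p21 OFF libraries, and the log2 fold change was 0.27 (SE 0.06; limma, adjusted p = 0.00551). ITGB4 was called in all 20 alternatives, at 0.20 with the length trend taken out. Per kilobase of canonical transcript its share of the beta subunit level was 27.7 ± 0.44% in p21 OFF and 32.4 ± 1.97% in p21 ON (SD, n = 3).

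ITGA6 is the sole alpha partner of ITGB4, and per kilobase of canonical transcript it was at 157 in p21 OFF and 160 in p21 ON, against 2210 and 2661 for ITGB4. The transcript of the beta subunit therefore exceeded that of its partner in both conditions. ITGB1, the partner of most alpha subunits, had counts of 13810, 14009 and 14734 in p21 OFF and 13336, 13985 and 13118 in p21 ON. These groups overlapped, with a log2 fold change of -0.07 and an interval of -0.20 to 0.05, and ITGB5, a vitronectin receptor subunit, gave -0.04 with an interval of -0.16 to 0.08. ITGB3, the beta subunit of platelet and osteoclast receptors, was at 71.6, 89.1 and 94.6 against 102.4, 108.4 and 114.0. Its groups were apart, but the log2 fold change of 0.35 did not pass (limma, adjusted p = 0.0701) except with scaling by library size alone (limma, adjusted p = 0.0419) and without p21 OFF replicate 3 (limma, adjusted p = 0.0459).

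ITGB2, the leukocyte beta subunit, had means of 622.1 and 664.0 with overlapping groups. Its alpha partners ITGAL, ITGAM, ITGAX and ITGAD had 0 to 8 reads in any library. ITGB7 and ITGB8 had means of 14.3 and 19.1 and of 182.3 and 185.4, and neither was called. The exons of ITGB7 share 1881 of their 4451 bases with ZNF740 on the opposite strand. The strand setting of the counting is not given in the sources used here, so reads of the 2 genes on the shared bases cannot be told apart.

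None of the alpha subunits that read the RGD motif of fibronectin and vitronectin was called. ITGA5, the fibronectin receptor subunit, had counts of 5802, 6151 and 6372 in p21 OFF and 6056, 5911 and 6427 in p21 ON. The 2 ranges lay almost on top of each other, with a log2 fold change of 0.01 and an interval of -0.12 to 0.13. ITGAV, the vitronectin receptor subunit, had means of 3264 and 3541 with overlapping groups. ITGA2B, the fibrinogen receptor subunit of platelets, was at 16.3, 17.2 and 20.0 against 32.6, 26.8 and 25.7. The groups were apart but rested on few reads, and the log2 fold change of 0.64 did not pass (limma, adjusted p = 0.0588) except with scaling by library size alone (limma, adjusted p = 0.0443) and where each library had to hold at least 10 reads (limma, adjusted p = 0.048).

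ITGA4 and ITGAE were the tested alpha subunits with log2 fold changes below 0. ITGA4, which binds fibronectin and VCAM1, had counts of 5810, 6654 and 6583 in p21 OFF and 5922, 5875 and 5469 in p21 ON. The overlap came from p21 OFF replicate 1 alone. The log2 fold change was -0.14 (limma, adjusted p = 0.123). It became -0.20 without that library (limma, adjusted p = 0.00419) and -0.23 with the length trend taken out (limma, adjusted p = 0.00128). ITGA4 shares 2813 exonic bases with CERKL on the opposite strand, which had means of 248.0 and 215.7.

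ITGAE, the subunit by which lymphocytes hold on to epithelium, had counts of 257.5, 193.7 and 186.3 in p21 OFF and 160.7, 177.9 and 160.6 in p21 ON. All p21 ON libraries were below all p21 OFF libraries, most of all below p21 OFF replicate 1. The log2 fold change of -0.34 did not pass (limma, adjusted p = 0.0514), but it did without p21 OFF replicate 2 (limma, adjusted p = 0.048), without p21 OFF replicate 3 (limma, adjusted p = 0.0207) and with the length trend taken out (limma, adjusted p = 0.0326). Without p21 OFF replicate 1, the highest library, the value shrank to -0.19 and was not called. Leaving out any p21 ON library gave no call either. ITGAE shares 427 exonic bases with a gene on the opposite strand, the mitotic histone kinase HASPIN, listed under its older symbol GSG2. GSG2, named after its values were seen, fell from a mean of 316.2 ± 6.04 to 113.4 ± 7.54 (SD, n = 3), a log2 fold change of -1.47 (limma, adjusted p = 2.79e-09). The part of these shared bases in the value of ITGAE was not tested.

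**Figure D4:**
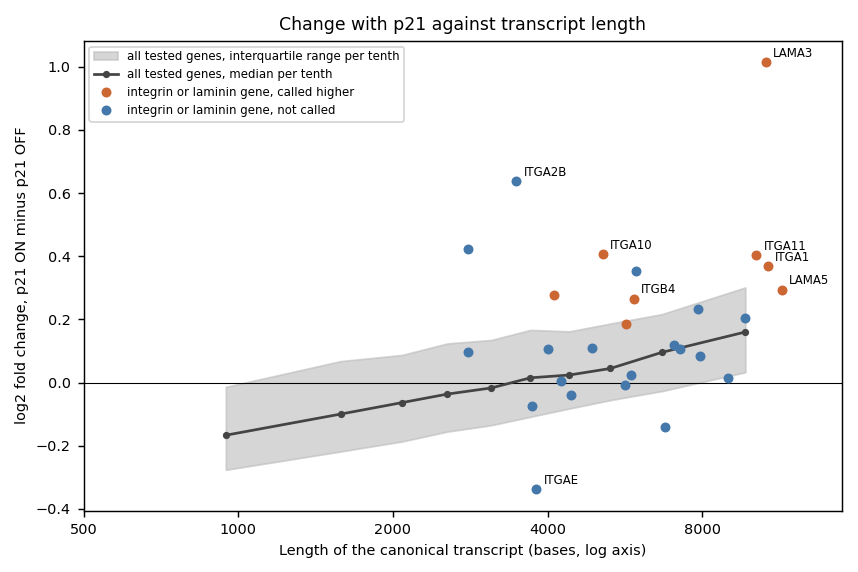
Log2 fold change of p21 ON minus p21 OFF against the length of the canonical transcript in bases (log axis), for 27 tested genes (points) and for 10 bins of the 12635 tested genes with a length (line at the median, band for the interquartile range). The median of these genes climbs from -0.17 to 0.16, LAMA3 at 1.02 lies far above the median of the longest bin, ITGA10 at 0.41 above the band and ITGAE at -0.34 below it.

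Inside the cell, integrin tails are joined to actin by talin, kindlin, the ILK complex, tensins and filamins, and in hemidesmosomes to keratin by plectin and dystonin. Of 41 such linker genes, 37 were tested, 6 were called higher and 1 lower, with a median log2 fold change of 0.02. Of all tested genes, 10.5% were called higher and 12.7% lower, and of those of 4000 bases or more 17.0% and 6.14%. With the length trend taken out, 6 linker genes were higher and 4 lower, against 10.6% and 13.0%. TNS2, a tensin listed as TENC1, had counts of 1343, 1645 and 1634 in p21 OFF and 2297, 1931 and 2258 in p21 ON. Its groups were apart, and it rose by a log2 fold change of 0.49 (limma, adjusted p = 0.000387). KANK2, which binds talin, rose from a mean of 4413 to 5409 with a log2 fold change of 0.30 (limma, adjusted p = 0.00713), a call lost without p21 ON replicate 3 (limma, adjusted p = 0.0544).

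The hemidesmosome linker DST rose from 8172 to 10911 with a log2 fold change of 0.42 (limma, adjusted p = 0.00451). Its canonical transcript is 24709 bases, and with the length trend taken out its value was 0.10 (limma, adjusted p = 0.149). PLEC, the linker that binds ITGB4, was named after its values were seen, and it behaved alike, with 0.26 (limma, adjusted p = 0.0175) and 0.04 after the correction (limma, adjusted p = 0.667). The groups of PLEC overlapped, p21 OFF replicate 2 at 21991 being level with p21 ON replicate 2 at 21985. LIMS2 at 0.64 and PTK2B at 0.59, also named after their values were seen, were the others called higher. LIMS2 was lost without p21 ON replicate 1 (limma, adjusted p = 0.0849). PTK2B was lost in DESeq2 (adjusted p = 0.0531) and without p21 OFF replicate 3, as well as when the first or the third p21 ON replicate was left out (limma, adjusted p of 0.0527 to 0.116). ZYX, an actin-bundle protein of focal adhesions, fell from 7041 ± 280 to 6013 ± 267 (SD, n = 3), a log2 fold change of -0.23 (limma, adjusted p = 0.0105), a call lost without p21 OFF replicate 2 (limma, adjusted p = 0.0539) or p21 ON replicate 1 (limma, adjusted p = 0.0643). The talins, kindlins, ILK, vinculin (VCL), paxillin (PXN) and FAK (PTK2) were not called. With single libraries left out, 3 to 9 linker genes were called higher and 0 to 3 lower. Of all 13255 tested genes, 695 to 1486 were then called higher and 887 to 1660 lower.

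Outside the cell, 36 genes for laminin partners, other laminin receptors and other integrin ligands were listed. Of these, 27 were tested, 9 were called higher and 3 lower, with a median log2 fold change of 0.18, against 10.5% of all tested genes called higher and 12.7% lower, so the share called lower was near the background. Among tested genes of 4000 bases or more, 17.0% were called higher and 6.14% lower. With the length trend taken out 5 of the 27 were higher and 2 lower, against 10.6% and 13.0%. SDC1, a heparan sulfate proteoglycan that binds laminin, had counts of 723.4, 748.3 and 815.3 in p21 OFF and 1228, 1154 and 1264 in p21 ON. The groups were far apart, with a log2 fold change of 0.67 (limma, adjusted p = 1.27e-06). NPNT, the basement membrane ligand of the receptor alpha-8 beta-1, rose from 253 ± 21.3 to 399 ± 8.21 (SD, n = 3), a log2 fold change of 0.66 (limma, adjusted p = 3.35e-05), while its receptor subunit ITGA8 was at 0. SDC3, another syndecan, rose from 4351 to 5662 with 0.38 (limma, adjusted p = 0.000283). All 3 were also higher with the length trend taken out, at 0.68, 0.63 and 0.33.

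The family of syndecans did not move as a block. SDC2 fell from 3669 ± 333 to 3107 ± 79.5 (SD, n = 3), a log2 fold change of -0.24 (limma, adjusted p = 0.0157), and lost its call without p21 ON replicate 1 (limma, adjusted p = 0.0634) or p21 ON replicate 3 (limma, adjusted p = 0.0791). The value of SDC4 was -0.09 and did not pass (limma, adjusted p = 0.282). IBSP, the RGD-bearing bone sialoprotein, fell from 129.5 to 99.0 (log2 fold change -0.38; limma, adjusted p = 0.0264), and COL4A6, a basement membrane collagen chain, from 60.2 to 40.5 (log2 fold change -0.56; limma, adjusted p = 0.0294). Neither was called when p21 OFF replicate 1 was left out, nor when the first or the third p21 ON replicate was (limma, adjusted p of 0.0592 to 0.0982 for IBSP and 0.0614 to 0.13 for COL4A6). IBSP was also lost without p21 ON replicate 2 (limma, adjusted p = 0.0518) and with the length trend taken out (limma, adjusted p = 0.0839), and COL4A6 without p21 OFF replicate 3 (limma, adjusted p = 0.0676). DESeq2 called neither, at adjusted p-values of 0.0981 and 0.101. HSPG2, the basement membrane proteoglycan perlecan, was called at 0.37 (limma, adjusted p = 0.0239) with overlapping groups, and fell short with the length trend taken out (0.15; limma, adjusted p = 0.145). The laminin alpha-5 receptor BCAM was called at 0.28 (limma, adjusted p = 0.0152), or 0.33 with the length trend taken out, a call lost without p21 OFF replicate 2 (limma, adjusted p = 0.0663) or p21 ON replicate 1 (limma, adjusted p = 0.0911). HSPG2 and BCAM were named after their values were seen. The others called higher, named for the same reason, were AGRN at 0.23, FBN1 at 0.38, TNN at 0.54 and VWF at 0.50. None of these calls held throughout. With the length trend taken out AGRN was at 0.13, FBN1 at 0.20 and VWF at 0.37 (limma, adjusted p of 0.0834, 0.0611 and 0.103), while TNN was still called. DESeq2 called neither TNN nor VWF (adjusted p of 0.0702 and 0.0673). AGRN was lost without p21 ON replicate 3 and FBN1 without p21 ON replicate 1 (limma, adjusted p of 0.0788 and 0.0755). TNN was lost without p21 OFF replicate 2 and when the first or the second p21 ON replicate was left out (limma, adjusted p of 0.0651 to 0.148), and VWF when any library but p21 OFF replicate 1 and p21 ON replicate 2 was left out (limma, adjusted p of 0.0533 to 0.162). COL17A1, the hemidesmosome collagen, had means of 1.16 and 3.07, and COL4A1 was at 0. With single libraries left out, 4 to 12 genes of this list were called higher and 0 to 3 lower, where 695 to 1486 of all 13255 tested genes were called higher and 887 to 1660 lower.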

How the data were processed

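Stranded libraries of mRNA were sequenced by the authors as single-end reads, aligned to hg19 by STAR, counted by gene name in HTSeq and divided by DESeq2 size factors. Tool versions and the strand setting are not given in the sources used here. The deposited values are these normalized counts, a signal of 0 or above for 23228 gene names, and the columns were matched to samples by their labels. In each library 100% of values were whole multiples of a step (tolerance 0.01 reads), which returned the reads on genes (12795490, 20914151 and 21975045 in p21 OFF, 13440402, 12918390 and 16630552 in p21 ON) and size factors of 0.796 to 1.35.

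Normalized values were tested with limma 3.58.1 (lmFit, eBayes with trend) in R 4.3.3, fitted to log2(normalized count + 1) with no covariate. The 13255 genes whose mean reached 10 were tested and adjusted together by the Benjamini-Hochberg method. A fold change on this scale understates the change of low genes. A count test on the recovered reads, edgeR 4.0.16 with TMM, called 1401 genes higher and 1647 lower, against 1393 and 1681 by limma. Other alternatives were edgeR with DESeq2 size factors, DESeq2 1.42.0, limma-voom, other scalings, pseudocounts of 0.1 and 10, other filters, an adjusted p under 0.01, a replicate block, libraries thinned to the smallest, a lowess of the log2 deviations on canonical transcript length (span 0.3) subtracted in each library, and each library left out. The limma script was tested on simulated data. Same-numbered libraries of both groups deviated with correlations of -0.0571 to -0.0245, so the numbers were not taken to pair them.

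GENCODE release 44, lifted to GRCh37 (hg19), gave positions, lengths and overlaps for the 21300 rows matched to it, 2163 of them by an older symbol. Some called genes also share exonic bases with other coding genes. ITGA1 shares 499 with PELO on the same strand. On the opposite strand LAMA5 shares 244 with ADRM1, and ITGA7 shares 119 with BLOC1S1 and fewer with others. The part of these bases in the values was not tested. Promoters are RefSeq sequences. The integrins, laminins and other lists were chosen with earlier results of these data known. From the linker and partner lists the 3 genes with the lowest adjusted p among those called in each direction are named, and exceptions are stated.

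The values of 1 tested gene of the 38 and of 1 cell type marker are not reported here; both remain in the counts.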

Additional observations from a re-analysis of the deposited data

How the results depend on the processing

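The count of integrins and laminins called higher stayed within 1.5 times of 8 except with an adjusted p under 0.01 (5), with the length trend taken out (5) and with single libraries left out (5 to 8). The count called lower was 0 by limma, edgeR, DESeq2 and limma-voom, 1 with the replicate block, 2 with the length trend taken out and 0 to 1 with single libraries left out. For linker genes called higher (6) the range with single libraries left out was 3 to 9. Those called lower (1) became 2 in edgeR with either scaling and in limma-voom, 0 with an adjusted p under 0.01, 4 with the length trend taken out and 0 to 3 with single libraries left out. Laminin partners and ligands called higher (9) became 14 with scaling by library size alone, 3 with an adjusted p under 0.01, 5 with the length trend taken out and 4 to 12 with single libraries left out. Those called lower (3) became 1 in DESeq2, without a filter and with thinned libraries, 0 with an adjusted p under 0.01 and 0 to 3 with single libraries left out. Of all tested genes, 4.65% were higher and 6.65% lower at an adjusted p under 0.01. With the length trend taken out these shares were 10.6% and 13.0%. With single libraries left out, 695 to 1486 of all 13255 tested genes were higher and 887 to 1660 lower. Except where a stricter threshold, fewer libraries or the subtraction itself makes the change, the cause was not tested.

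Log2 fold changes near 0 changed sign without being called in either fit. With the length trend taken out ITGA5 was -0.021, ITGA6 -0.040, ITGB8 -0.12 and LAMC1 -0.030, and with thinned libraries ITGA5 was -0.0081. Scaling by library size alone gave ITGB5 0.0062 and LAMB1 0.037. With single libraries left out the value ran from -0.031 to 0.037 for ITGA5, from -0.019 to 0.062 for ITGA6, from -0.068 to 0.14 for ITGB8 and from -0.027 to 0.015 for LAMB1. The replicate block, whose numbers share nothing known between the groups, left 7 of the 28 genes higher (LAMB2 was lost, adjusted p = 0.0657 in limma) and made ITGAE lower (adjusted p = 0.034 in limma), against 10.6% and 11.4% of all tested genes. No library correlated best with the library of its own number. Scaling by library size alone called 2034 genes higher and 1194 lower of all tested, against 1393 and 1681. DESeq2 gave no adjusted p for ITGB7, which has few reads. ITGA2B, ITGB7 and LAMA2 had 12 to 35 reads in a library and wide intervals.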
